A study of Mus musculus with 4 samples.

Results

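The 34 genes described here are made at high level by the epithelium of the choroid plexus, and each was taken as the gene whose symbol in the deposited gene count table equalled a fixed name. All 34 were found among 31060 genes, and all 34 were among the 17236 genes with enough counts to test. RNA came from the hippocampus of wild-type C57BL/6 mice, labelled 12 months old, with 2 libraries per group. The surgery group (postoperative cognitive dysfunction model) underwent exploratory laparotomy under sevoflurane and was sampled on postoperative day 3, 72 h after the operation. Naïve controls had neither operation nor sevoflurane exposure before sampling and are labelled day 0, so the effects of anesthesia, surgery and day cannot be told apart. Mice of both groups were anesthetized when tissue was taken. Whether the 2 libraries of a group came from separate animals is not given, so a p-value reflects only how far these particular libraries scatter, and that scatter may be technical. No batch, dissection or sequencing date is labelled.

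The choroid plexus is a fringe of epithelium on a vascular stroma that hangs into the brain ventricles and borders the hippocampal fimbria. Its cells move sodium, chloride, bicarbonate and water to make cerebrospinal fluid, seal the blood from that fluid with tight junctions, and secrete carriers and growth-factor binding proteins into it. Choroid epithelium is not a part of the hippocampal formation itself. In bulk tissue, fewer cells of a type and less RNA per cell cannot be told apart.

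Libraries held 18002695 to 19318085 gene counts, which is a narrow range. The labelled tissue was checked with 17 genes of hippocampal neurons, such as Prox1 and Neurod6, which all passed the filter on low counts. Their summed level was 2033 and 2067 CPM (counts scaled to a common library total) in the surgery libraries, against 2152 and 1880 CPM in the controls. CPM values here are scaled by TMM factors, which correct for the make-up of each library. Control replicate 1 stood apart from the other 3 libraries in the choroid genes. The comparison of surgery with control is therefore given with and without it.

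Control replicate 1 was the lowest of the 4 libraries for 34 of 34 choroid plexus genes, whereas 21.0% of all tested genes were lowest there. The 34 genes summed to 5914 and 7076 CPM in surgery replicates 1 and 2, against 312.5 CPM in control replicate 1 and 5699 CPM in control replicate 2. The sum in control replicate 1 was 18.2-fold below that of the other control. Most of the sum was Ttr, which made up 57.1% and 60.0% in the surgery libraries, against 6.35% in control replicate 1 and 56.7% in control replicate 2. Without Ttr, the other 33 genes summed to 2539 and 2831 CPM after surgery, against 292.6 and 2469 CPM in the controls. One control library thus lay far below both surgery libraries, and the other lay close to them.

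**Figure D1:**
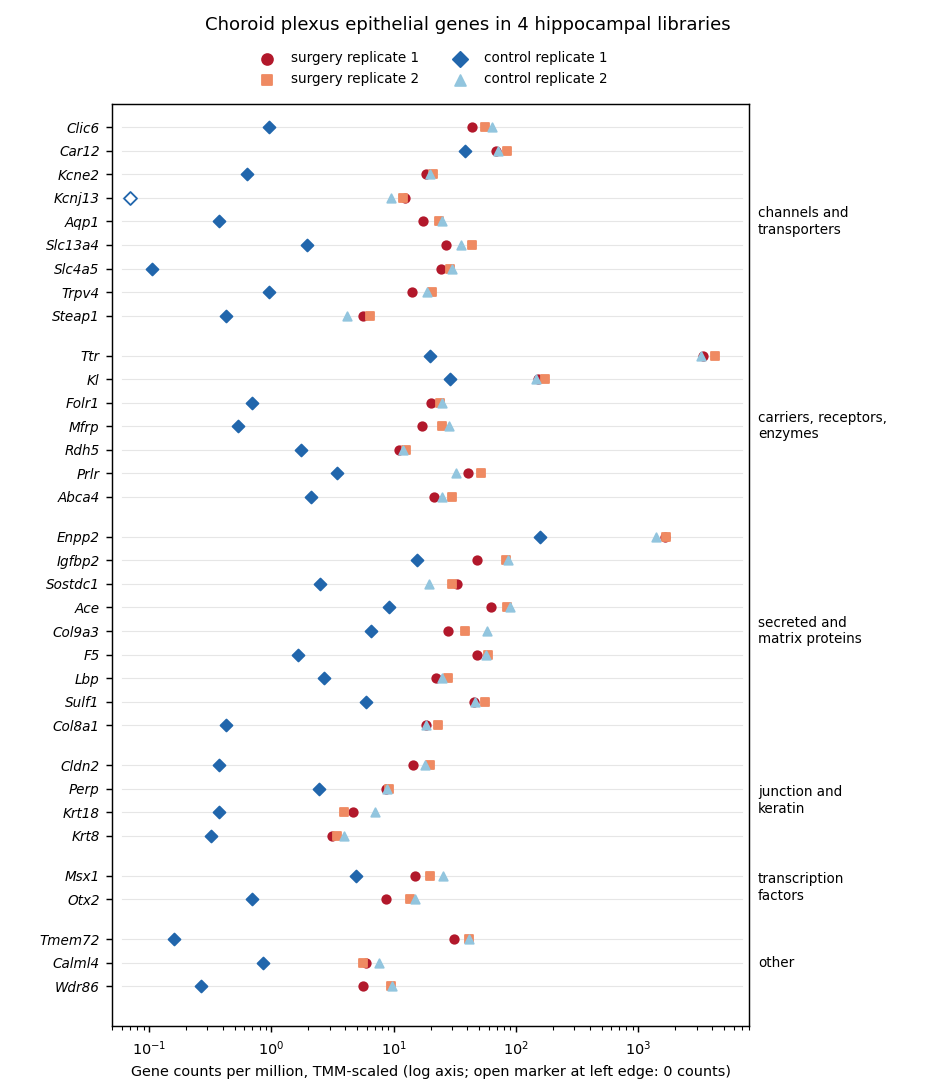
Level of each of the 34 choroid plexus epithelial genes in the 4 libraries, in TMM-scaled CPM on a log axis, with genes grouped by role and ordered by FPKM within a role. Filled markers are single libraries, and the open marker at the left edge is a library with 0 counts (Kcnj13 in control replicate 1). Control replicate 1 is the leftmost marker in all 34 rows, while the other 3 libraries lie nearer to each other than to it.

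Channels and transporters of fluid secretion were among the lowest in control replicate 1. Slc4a5, a sodium bicarbonate cotransporter of the choroid epithelium, had 24.2 and 28.9 CPM in the surgery libraries, against 0.106 and 29.8 CPM in the controls. Only 2 reads were counted for it in control replicate 1, which was 0.438% of the lowest other library (95% Poisson interval 0.0531% to 1.58%, which like all such intervals here covers counting error only). Kcnj13, an inward rectifier potassium channel of the apical membrane, had 12.4 and 11.9 CPM after surgery, against 0 and 9.56 CPM in the controls. Its count of 0 in control replicate 1 allows at most 1.66% of the lowest other library, taking 3 counts as the limit. Both genes were thus near or below detection in one control. In the other control Slc4a5 was the highest of the 4 libraries, and Kcnj13 was below both surgery libraries.

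Aqp1, the apical water channel, showed the same spread, with 17.3 and 23.5 CPM in the surgery libraries, against 0.371 and 24.9 CPM in the controls. Clic6, a member of the chloride intracellular channel family, had 44.0 and 55.6 CPM after surgery, against 0.955 and 63.3 CPM in the controls. Kcne2, a potassium channel accessory subunit, had 18.5 and 20.8 CPM after surgery, against 0.637 and 19.7 CPM in the controls. For these 3 genes control replicate 2 lay within or above the surgery libraries, and control replicate 1 held 2.15% to 3.44% of the lowest other library. Trpv4, an osmotically sensitive cation channel, and Slc13a4, a sodium-dependent sulfate transporter, were at 6.83% and 7.37% in control replicate 1.

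Car12 and Steap1 departed from this pattern among the transport genes. Car12, a membrane-bound carbonic anhydrase, had 69.1 and 84.6 CPM in the surgery libraries, against 38.1 and 71.0 CPM in the controls. Control replicate 1 still held 55.1% of the lowest other library, more than for any other of the 34 genes. Steap1, a member of a metalloreductase family, had 5.61 and 6.35 CPM after surgery, against 0.425 and 4.16 CPM in the controls. Steap1 was 1 of 7 genes for which both surgery libraries exceeded both controls.

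Carriers, receptors and enzymes of retinoid handling followed. Ttr, the carrier of thyroxine and of retinol-binding protein in cerebrospinal fluid, had 3374 and 4245 CPM in the surgery libraries, against 19.8 and 3231 CPM in the controls. On a scale per length (FPKM, a count scaled by gene length and library total), Ttr was the most abundant of the 34 genes, with 2757 and 3443 FPKM after surgery, against 15.98 and 2723 FPKM in the controls. The 374 reads of Ttr in control replicate 1 were 0.614% of the lowest other library. Control replicate 2 was just below the surgery libraries, and control replicate 1 was 163-fold below the lowest of the others.

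Folr1, the folate receptor that carries folate across the choroid epithelium, had 20.1 and 23.8 CPM after surgery, against 0.690 and 24.9 CPM in the controls. Mfrp, a membrane frizzled-related protein, had 17.0 and 24.7 CPM after surgery, against 0.531 and 28.1 CPM in the controls. Both were highest in control replicate 2 and lowest in control replicate 1. Kl, which encodes klotho, a co-receptor that is also shed into the fluid and is known from hippocampal neurons too, had 152.5 and 171.5 CPM after surgery, against 28.9 and 146.6 CPM in the controls. Prlr, the prolactin receptor, had 40.5 and 51.2 CPM after surgery, against 3.45 and 32.3 CPM in the controls. In both of these, the surgery libraries were above both controls, with control replicate 1 at 19.7% (Kl) and 10.7% (Prlr) of the lowest other library. Rdh5, a retinol dehydrogenase, and Abca4, a retinoid transporter known from photoreceptors, were at 15.8% and 9.92%.

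Secreted and matrix proteins spanned a wider range in control replicate 1. Enpp2, which encodes autotaxin, the enzyme that makes lysophosphatidic acid and is also made by oligodendrocytes, had 1644 and 1695 CPM in the surgery libraries, against 156.9 and 1389 CPM in the controls. Sostdc1, a secreted antagonist of BMP signalling, had 32.7 and 29.7 CPM after surgery, against 2.49 and 19.4 CPM in the controls. The surgery libraries were above both controls for both genes. F5, coagulation factor V, had 47.8 and 58.7 CPM after surgery, against 1.65 and 57.2 CPM in the controls. Col8a1, a short-chain collagen, had 18.2 and 23.0 CPM after surgery, against 0.425 and 18.4 CPM in the controls. In F5 and Col8a1 control replicate 2 lay between the surgery libraries.

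Igfbp2, a binding protein of insulin-like growth factors that astrocytes and meninges also make, had 47.5 and 82.6 CPM in the surgery libraries, against 15.6 and 85.6 CPM in the controls. Ace, angiotensin-converting enzyme, had 62.9 and 83.8 CPM after surgery, against 9.13 and 88.6 CPM in the controls. Col9a3, a chain of collagen type IX, had 27.8 and 38.4 CPM after surgery, against 6.47 and 58.1 CPM in the controls. Control replicate 2 was the highest library for all 3, so the controls lay on either side of the surgery libraries. Lbp, the lipopolysaccharide-binding protein, and Sulf1, a sulfatase that trims heparan sulfate, were at 12.3% and 13.1% of the lowest other library in control replicate 1.

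Junction and keratin genes gave lower levels. Cldn2, the pore-forming claudin of leaky tight junctions, had 14.4 and 19.9 CPM in the surgery libraries, against 0.371 and 18.2 CPM in the controls. Krt18 had 4.68 and 3.90 CPM after surgery, against 0.371 and 7.08 CPM in the controls, and its keratin partner Krt8 had 3.12 and 3.45 CPM after surgery, against 0.318 and 3.95 CPM in the controls. Both keratins of simple epithelia were highest in control replicate 2. Perp, a desmosome component, was flatter, with 8.57 and 9.19 CPM after surgery, against 2.44 and 8.75 CPM in the controls.

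Otx2, a homeobox factor needed for choroid plexus development and maintenance, had 8.63 and 13.6 CPM in the surgery libraries, against 0.690 and 14.9 CPM in the controls. Msx1, another homeobox factor of the dorsal midline, had 14.9 and 19.8 CPM after surgery, against 4.88 and 25.5 CPM in the controls. Both were highest in control replicate 2. Tmem72, a membrane protein, had 31.3 and 41.2 CPM after surgery, against 0.159 and 41.6 CPM in the controls. Its 3 reads in control replicate 1 were 0.508% of the lowest other library (Poisson interval 0.105% to 1.49%). Calml4, a calmodulin-like protein, was at 15.1%, and Wdr86, a WD-repeat protein, at 4.73% on 5 reads.

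Taking the genes as a set, 18 of 34 were under 10% of the lowest other library in control replicate 1, against 0.197% of all tested genes (34 of 17236), with a count of 0 taken as 3 counts. A further 11 lay between 10% and 20%, and 5 were at or above 20%: Col9a3, Perp, Msx1, Igfbp2 and Car12. The median was 9.72%, against 114% over all tested genes. Abca4 at 9.92% was the last gene under 10%, and Steap1 at 10.2% was the first above it. No tested gene was more than 10 times higher in control replicate 1 than in each other library. Since this library was singled out by its values, these are descriptions and no test was run on them. In the transcript table summed by gene, control replicate 1 was also the lowest library for 34 of 34 genes.

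**Figure D2:**
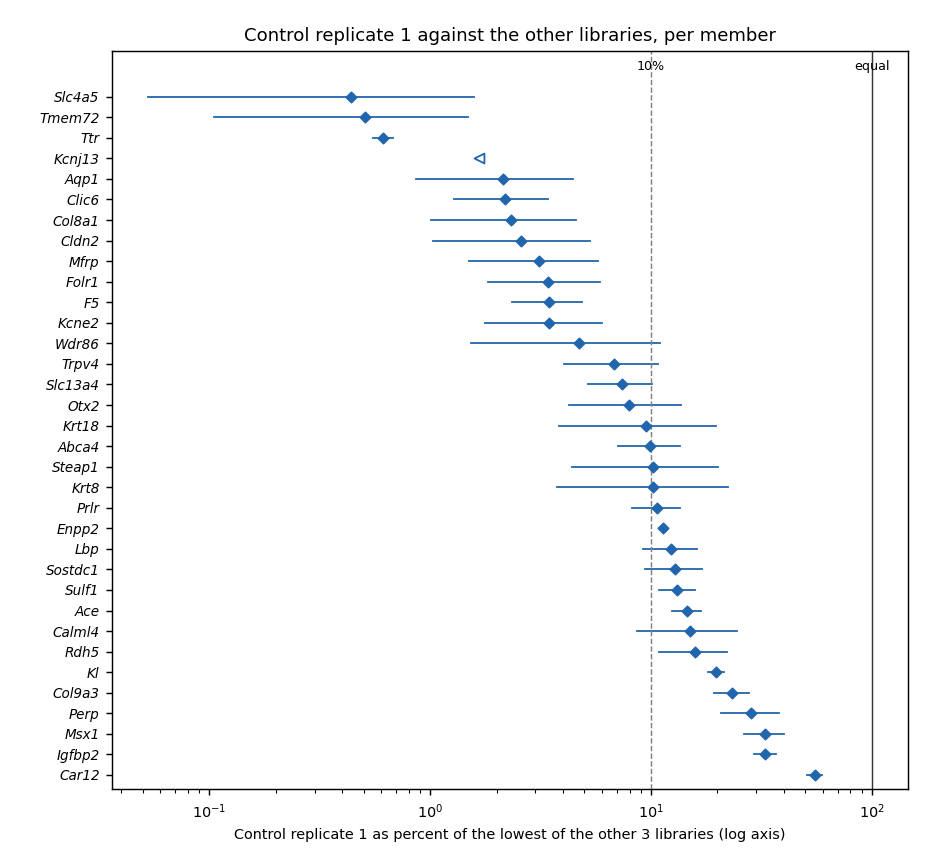
Level in control replicate 1 as a percent of the lowest of the other 3 libraries for each of the 34 genes, on a log axis, with lines for 95% Poisson intervals of the count in control replicate 1. The open triangle for Kcnj13 marks the limit that 0 counts allow (1.66%), the dashed line 10% and the solid line equality. Values run from 0.438% for Slc4a5 to 55.1% for Car12, with 18 genes left of the dashed line.

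How low control replicate 1 lay differed between genes beyond counting error. It held 11.3% of the lowest other library for Enpp2 (Poisson interval 10.9% to 11.7%) and 0.614% for Ttr (0.554% to 0.68%). The 34 genes lie on 15 chromosomes, with at most 5 on one of them. Krt8 and Krt18 are 23.7 kb apart on chromosome 15, and Kcne2 and Clic6 are 188 kb apart on chromosome 16. The median GC content of their transcripts was 52.0%, against 49.4% over tested genes.

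Transcript estimates separated the forms of Car12 and of Enpp2. The 2 main Car12 transcripts differ in coding sequence by an exon of 30 bases, which encodes 10 residues, at chr9:66762403-66762432 on the plus strand (mm10, GENCODE vM21). The 2 main Enpp2 transcripts differ in coding sequence by an exon of 75 bases, which encodes 25 residues, at chr15:54851348-54851422 on the minus strand. Both are shown because the forms with and without the exon had different levels in control replicate 1. The exon is in capitals and the 30 transcript bases on either side are in lower case.
Car12-201: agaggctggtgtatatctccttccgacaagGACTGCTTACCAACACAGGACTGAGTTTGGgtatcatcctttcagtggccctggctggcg
Enpp2-202: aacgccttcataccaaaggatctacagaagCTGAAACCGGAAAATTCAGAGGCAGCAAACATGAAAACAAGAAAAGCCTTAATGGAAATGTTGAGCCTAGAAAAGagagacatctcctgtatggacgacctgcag

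Car12 transcripts with the 30-base exon had 501 and 745 estimated counts in the surgery libraries, against 7 and 895 in the controls. Those without it had 4094 and 4094 estimated counts after surgery, against 2758 and 3677 in the controls. Scaled to the total of the transcript table, control replicate 1 held 1.43% of the lowest other library for the form with the exon and 70.5% for the form without it. The form with the exon was thus low in control replicate 1 to a degree like that of Aqp1 or Clic6, whereas the gene as a whole was the least depleted of the 34. As a share of all Car12 counts, transcripts with the exon made up 10.9% and 15.4% in the surgery libraries, against 0.253% and 19.6% in the controls.

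In Enpp2 the order was the other way round. Enpp2-202, which has the 75-base exon, had 1864 and 31287 estimated counts in the surgery libraries, against 2006 and 1809 in the controls. Transcripts without the exon had 75963 and 67758 estimated counts after surgery, against 7815 and 56871 in the controls. Control replicate 1 held 110% of the lowest other library for the form with the exon and 12.9% for those without it. Surgery replicate 2 stood far above the other 3 libraries for Enpp2-202, so the surgery libraries did not resemble each other for this form. A longer brain form of autotaxin with an extra coding exon is known. Sulf1 also shifted, with Sulf1-202 at 19.04% and 28.1% of the gene's estimated counts after surgery, against 99.3% and 63.1% in the controls. The 4 other Sulf1 transcripts that made up at least 10% of the gene in some library had 0 estimated counts in control replicate 1. The tool behind these estimates is not given in the sources used here, and no test was run on them.

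**Figure D3:**
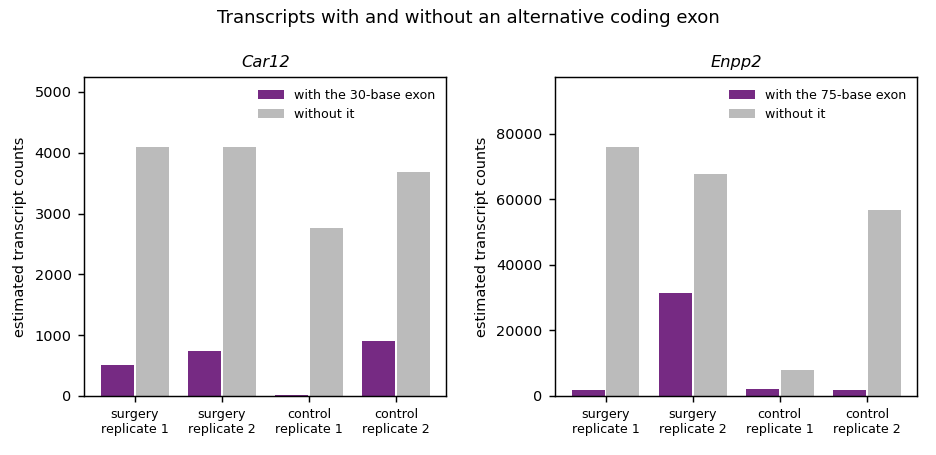
Estimated transcript counts of Car12 (left) and Enpp2 (right) summed over transcripts with the alternative coding exon (purple) and without it (grey), 1 pair of bars per library. In control replicate 1 the Car12 form with the exon has 7 estimated counts beside 2758 without it, while for Enpp2 the 2006 estimated counts with the exon are close to those of surgery replicate 1 and control replicate 2.

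Surgery was compared with control over all 4 libraries to ask whether the choroid genes changed after the operation. The fold changes of all 34 genes were positive, with a median log2 fold change of 0.81, against 0.000533 over all tested genes. None of the 34 passed an adjusted p of 0.05 in edgeR's quasi-likelihood test, and 0% of all tested genes did. At an unadjusted p under 0.05, 2 of 34 were higher after surgery, Sostdc1 and Steap1, against 4.33% of all tested genes. DESeq2 called 0 of the 34, against 21 genes higher and 57 lower among all 17236 tested, and it gave Sostdc1 no adjusted p. At its unadjusted threshold 0 of the 34 were higher, against 2.95% of all tested genes. With limma-voom 0 were called, with 26 higher at the unadjusted threshold against 4.64% of all tested genes. Both surgery libraries were above both controls in 7 of 34 genes, against 20.3% of all tested genes, a share close to that of the choroid genes. These were Ttr, Enpp2, Kl, Sostdc1, Kcnj13, Steap1 and Prlr.

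The result turned on which control was used. With control replicate 1 alone as the control, 34 of 34 genes were called higher after surgery in edgeR, against 1.06% of all tested genes, with a median log2 fold change of 3.77 (the same with Kcnj13 set at its lower bound of 6.26). With control replicate 2 alone, 0 of 34 were called, against 0.0928% of all tested genes, and the median was -0.094. In both fits the lone control is assumed to vary like the surgery group. Control replicate 1 was singled out as the lowest library for all 34 genes, so their higher level against it was given in advance. The count of 34 of 34 and its contrast with all tested genes are therefore descriptions and not a test of surgery. Without any filter on low counts, 24 of 34 were called higher over all 4 libraries, against 0.526% of all genes then tested. Without surgery replicate 1, 2 were called higher, against 0.110% of all tested genes, and without surgery replicate 2, 12 were, against 1.39%.

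Ttr had a log2 fold change of 1.23 (SE 1.23, edgeR adjusted p = 0.766) over all libraries and 0.24 (SE 0.20, edgeR adjusted p = 0.692) without control replicate 1. For Enpp2 the values were 1.11 (SE 0.65, edgeR adjusted p = 0.579) and 0.27 (SE 0.18, edgeR adjusted p = 0.619). Both genes kept their direction with a smaller value. Sostdc1 had the largest log2 fold change over all libraries, 1.51 (SE 0.57, edgeR adjusted p = 0.455), and kept 0.68 (SE 0.19, edgeR adjusted p = 0.168) without control replicate 1. Kl gave 0.88 (SE 0.49, edgeR adjusted p = 0.562) and 0.14 (SE 0.17, edgeR adjusted p = 0.795). Car12 gave 0.50 (SE 0.23, edgeR adjusted p = 0.509) and 0.11 (SE 0.18, edgeR adjusted p = 0.855).

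Igfbp2, Ace and Clic6 turned direction. Igfbp2 had a log2 fold change of 0.36 (SE 0.54, edgeR adjusted p = 0.853) over all libraries and -0.40 (SE 0.23, edgeR adjusted p = 0.561) without control replicate 1. Ace had 0.59 (SE 0.64, edgeR adjusted p = 0.792) and -0.27 (SE 0.19, edgeR adjusted p = 0.625). Clic6 had 0.63 (SE 0.91, edgeR adjusted p = 0.849) and -0.35 (SE 0.18, edgeR adjusted p = 0.507). None of these 8 genes, the most abundant per length, passed the test in either fit.

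**Figure D4:**
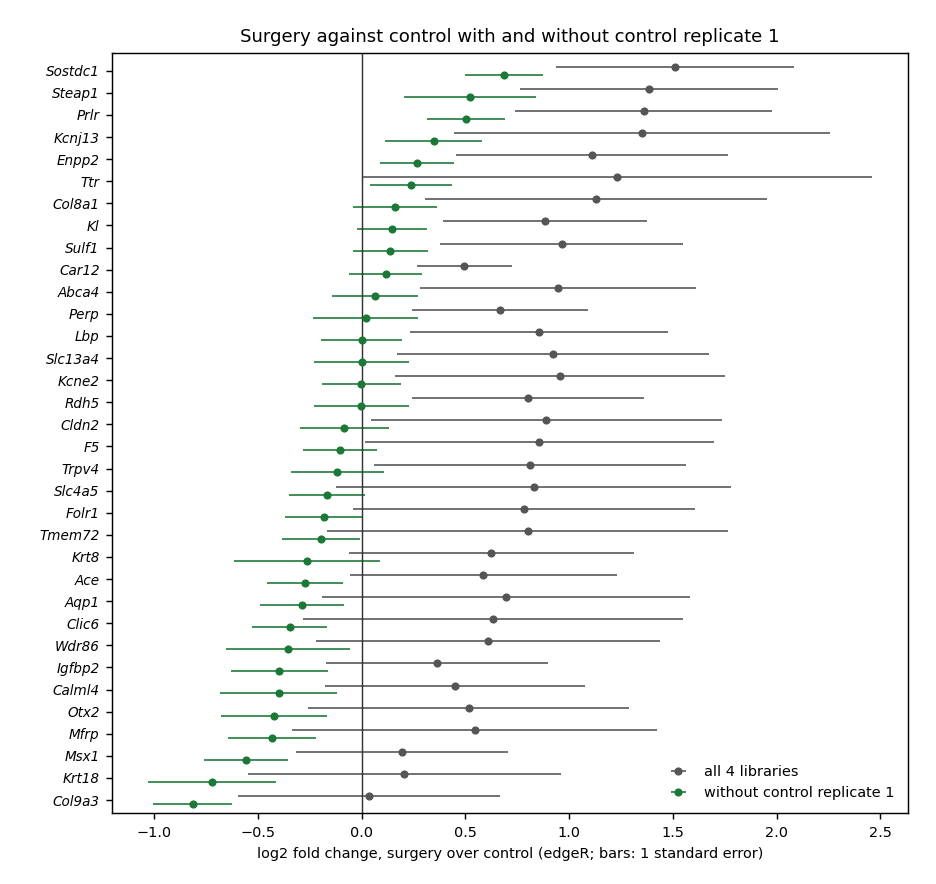
Log2 fold change of surgery over control for the 34 genes from edgeR, over all 4 libraries (grey) and without control replicate 1 (green), with bars of 1 standard error, ordered by the second value. All 34 grey points are above 0, whereas the green points run from -0.81 (Col9a3) to 0.68 (Sostdc1), with 13 above and 21 below 0.

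Without control replicate 1, the direction was split, with 13 genes above 0 and 21 below. At an unadjusted p under 0.05 in edgeR, 2 were higher after surgery, Sostdc1 and Prlr, against 4.24% of all tested genes. Another 3 were lower, Col9a3, Msx1 and Krt18, against 6.46% of all tested genes. Col9a3 had the smallest p of these, with a log2 fold change of -0.81 (SE 0.19, edgeR adjusted p = 0.108). DESeq2 called 0 of the 34, with 2 higher and 1 lower at the unadjusted threshold, against 1.58% and 2.35% of all tested genes.

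The 3 libraries other than control replicate 1 lay nearer to each other than to it, but their spread was wider than is usual for tested genes. The highest was a median of 1.36 times the lowest, against 1.23 times over 12775 tested genes in the same range of mean CPM. For 23 genes the spread was under 1.5-fold, and for 11 it was larger. The widest was Col9a3, at 2.09-fold. Control replicate 2 was the highest of the 3 in 15 genes, between the surgery libraries in 12 and the lowest in 7. Surgery replicate 2 was above surgery replicate 1 in 30 of 34 genes, all but Sostdc1, Kcnj13, Krt18 and Calml4, whereas 50.3% of all tested genes were. Most of the choroid genes were therefore higher in one surgery library than in the other, by far less than the gap between the controls.

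Other genes known from choroid plexus were examined as a separate list of 30 symbols, of which 28 were tested. Elf3 had too few counts, and Ecrg4 was matched only under its older symbol, 1500015O10Rik, which the list also holds. They summed to 914.3 and 1026 CPM in the surgery libraries, against 604.1 and 1044 CPM in the controls. Control replicate 1 was lowest for 24 of the 28 and under 10% of the lowest other library for 1, 1500015O10Rik. The most abundant of the list also have neuronal or vascular sources. Among them Htr2c, a serotonin receptor, had 85.5 and 92.9 CPM after surgery, against 53.2 and 79.1 CPM in the controls. Trpm3, a cation channel, had 110 and 128 CPM after surgery, against 59.2 and 122 CPM in the controls. Slco1c1, a thyroxine transporter, had 83.1 and 76.0 CPM after surgery, against 50.7 and 85.3 CPM in the controls. Slc23a2, a vitamin C transporter, had 182 and 182 CPM after surgery, against 187 and 201 CPM in the controls, and was not lowest in control replicate 1. No gene of the list passed the adjusted threshold of edgeR over all libraries, and 0% of all tested genes did. At the unadjusted threshold 4 of the 28 were higher, against 4.33% of all tested genes. Without control replicate 1, the median log2 fold change of the list was -0.098.

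The general machinery of ion pumps and fluid secretion, 20 genes that other brain cells also use, was not low to such a degree in control replicate 1. None was under 10% of the lowest other library there, and the median by gene was 103.5%. The list summed to 4198 and 3898 CPM in the surgery libraries, against 3697 and 3727 CPM in the controls. Control replicate 1 was lowest for 9 of 20, against 21.0% of all tested genes. Atp1b1, a beta subunit of a cation pump, had 2018 and 1807 CPM after surgery, against 1752 and 1620 CPM in the controls. Slc4a10, a bicarbonate transporter, had 348 and 349 CPM after surgery, against 307 and 302 CPM in the controls, and Car2, a cytosolic carbonic anhydrase, had 250 and 211 CPM after surgery, against 204 and 191 CPM in the controls. For these 3 genes, control replicate 1 was not the lowest library. Of the 9 for which it was, Slc4a2 (44.7% of the lowest other library), Cab39l (54.1%) and Car14 (58.8%) lay furthest below. None of the 20 passed the adjusted threshold in edgeR over all libraries, and 0% of all tested genes did. At the unadjusted threshold 2 were higher, against 4.33% of all tested genes, and 1 was lower, against 971 of 17236. Without control replicate 1, the median log2 fold change of these genes was -0.029.

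Genes of neighbouring tissue were also low in control replicate 1, to a smaller degree. Leptomeningeal and stromal genes summed to 236.5 and 324.8 CPM in the surgery libraries, against 152.3 and 281.5 CPM in the controls, with control replicate 1 lowest for 18 of 20. Border macrophage genes summed to 26.9 and 29.2 CPM after surgery, against 31.1 CPM in control replicate 2, and control replicate 1 held 74.3% of the lowest other library. Only 6 of the 10 listed genes had enough counts to test. Control replicate 1 was lowest for 6 of 6 tested, though Stab1, the most abundant, was at 95.4%. Of the genes not tested, all with few counts, Pf4 alone was not lowest there. Ependymal genes summed to 84.3 and 82.5 CPM after surgery, against 64.7 and 115 CPM in the controls, with control replicate 1 lowest for 10 of 17. As sums, leptomeningeal genes held 64.4% and ependymal genes 78.5% of the lowest other library in control replicate 1. The choroid genes held 5.48%, or 11.85% without Ttr. Such sums are weighted by the most abundant genes. By gene, the median was 44.5% for leptomeningeal, 40.3% for macrophage and 96.75% for ependymal genes, against 9.72% for the choroid genes. Endothelial genes summed to 486 and 496 CPM after surgery, against 394 and 493 CPM in the controls, with control replicate 1 lowest for 12 of 15.

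Summed genes of astrocytes, microglia and oligodendrocytes were not lowest in control replicate 1. Astrocyte genes summed to 5639 and 5450 CPM in the surgery libraries, against 5722 and 5195 CPM in the controls. Microglial genes summed to 438 and 359 CPM after surgery, against 399 and 369 CPM in the controls. Oligodendrocyte genes summed to 5261 and 3712 CPM after surgery, against 5162 and 5414 CPM in the controls, so that surgery replicate 2 was the low library there. Mural genes had control replicate 1 lowest for 3 of 9, genes of thalamus, habenula and striatum for 7 of 16, and blood genes for 2 of 5. Blood genes summed to 50.1 and 62.9 CPM after surgery, against 49.2 and 110 CPM in the controls. Hbb-bs, an adult beta-globin, had 23.7 and 28.0 CPM after surgery, against 24.7 and 60.0 CPM in the controls, so control replicate 2 was the high library. Its log2 fold change was -1.22 without control replicate 1 and -0.71 over all libraries (edgeR adjusted p = 0.485 over all libraries). The part of leptomeningeal, endothelial or blood RNA in the choroid result was not tested.

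**Figure D5:**
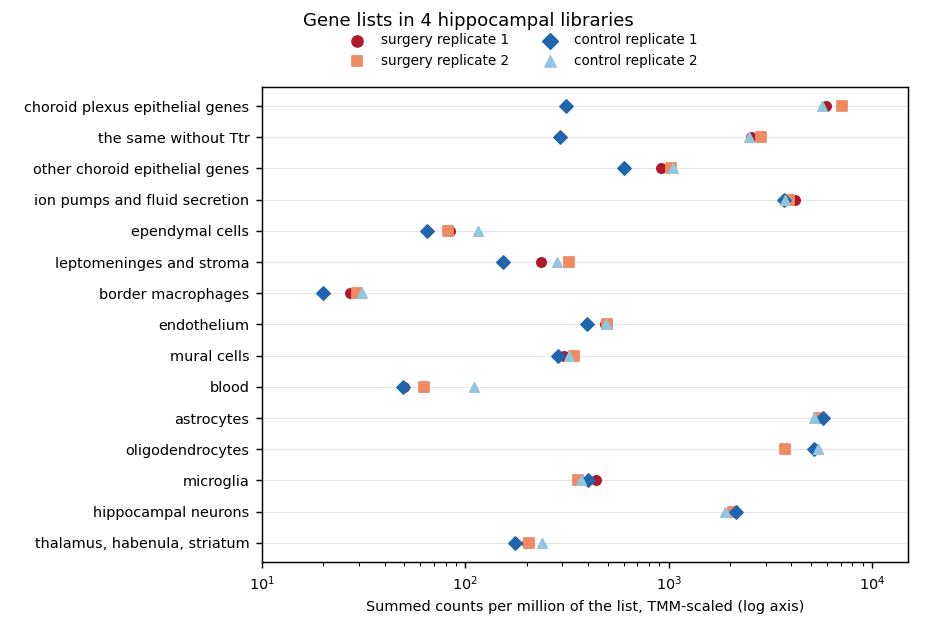
Summed TMM-scaled CPM, on a log axis, of the 34 choroid plexus epithelial genes, of the same set without Ttr and of 13 other gene lists in the 4 libraries. Control replicate 1 lies far left of the other libraries for the 34 genes (312.5 CPM, next lowest 5699 CPM). It is leftmost by less for other choroid, leptomeningeal, macrophage, ependymal, endothelial, mural and thalamus, habenula and striatum genes. For ion pump and blood genes it is leftmost by very little. It is rightmost for neurons and astrocytes, and among the others for microglia and oligodendrocytes.

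Genes most like the 34 were sought over all tested genes whose mean in the other 3 libraries was 1 CPM or more, by the ratio of control replicate 1 to the lowest of the others. The first 10 all had 0 counts in control replicate 1. The most abundant of them, Prr32, had 4.62 and 6.24 CPM in the surgery libraries, against 0 and 6.38 CPM in the controls, a limit of 3.44% of the lowest other library. Cdh3, a classical cadherin, had 1.35 and 2.51 CPM after surgery, against 0 and 2.05 CPM in the controls, a limit of 11.8%. The other 8 were Foxc2, H2-Q1, Tmem27, AC154640.1, Defb11, Cox8b, Sult1c2 and Tgtp1, whose limits ran up to 23.8%, so that for Cdh3 and these 8 a level under 10% was not detectable at this depth. Of all 34 tested genes under 10%, 16 were not choroid genes of this set.

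Promoter sequence was examined because Otx2 and Msx1 are themselves among the 34 and bind short homeobox motifs. RefSeq windows (GRCm38.p6) were matched for 25 of the 34 genes, as 33 windows, and the 250 bases before each start were searched on both strands. The OTX2 motif TAATCC was found in 4 of the 33 windows, which is 12.1%, against 6.25% of all 32851 windows. The MSX1 motif TAATTG was found in 4 windows, 12.1%, against 7.17% of all windows, and belonged to Otx2, Kcnj13 and Tmem72. A match is a description and not a bound site. The 4 windows with TAATCC are shown as 100 bases around the motif, 5′ to 3′ on the gene's strand. The motif or its reverse complement GGATTA is in capitals. These windows are shown because Otx2 is itself among the 34, and whether it regulates these genes was not tested. They lie at chr11:105967848-105967947 (Ace, plus strand), chr9:44101589-44101688 (Mfrp, plus strand), chr14:48665260-48665359 (Otx2, minus strand) and chr3:122044355-122044454 (Abca4, plus strand).
Ace: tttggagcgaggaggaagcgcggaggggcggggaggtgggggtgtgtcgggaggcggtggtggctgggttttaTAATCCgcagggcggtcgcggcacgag
Mfrp: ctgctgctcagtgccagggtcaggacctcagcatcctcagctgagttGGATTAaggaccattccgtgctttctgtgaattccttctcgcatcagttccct
Otx2: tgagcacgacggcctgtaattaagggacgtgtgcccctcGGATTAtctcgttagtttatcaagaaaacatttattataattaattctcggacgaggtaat
Abca4: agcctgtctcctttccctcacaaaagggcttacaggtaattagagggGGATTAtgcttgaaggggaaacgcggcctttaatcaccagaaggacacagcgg

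The motif ends 21 bases before the start in Ace and 52 bases before it in Abca4, against 128 in Mfrp and 205 in Otx2. In control replicate 1 these 4 genes held 14.5% (Ace), 9.92% (Abca4), 3.12% (Mfrp) and 7.998% (Otx2) of the lowest other library. Their values thus lay within the range of the genes without the motif in a window.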

How the data were processed

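Per the labels, reads were aligned to mm10 with HISAT2 and counted with HTSeq, given as version 5.4.2; the annotation release is not given in the sources used here. The authors deposited raw counts per gene, FPKM per gene, and estimated counts per transcript, for which no tool is named in the sources used here; these sum to 3.88 times the gene counts. The study tested its groups with DESeq2.

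Surgery was tested against control on gene counts with edgeR 4.0.16 in R 4.3.3 (TMM, filterByExpr with a minimum count of 10 and total of 15, quasi-likelihood test), with Benjamini-Hochberg adjustment over all 17236 tested genes and a threshold of 0.05, with and without control replicate 1. Alternatives were DESeq2 1.42.0, limma 3.58.1 (voom, and log2(FPKM + 1) or log2(FPKM + 0.1)), RLE factors, other count filters, a replicate block and leaving out each library. On simulated counts of 17236 genes for the comparison over all libraries, with 100 genes changed 2-fold and 100 changed 4-fold, edgeR recovered 82 and 100 and called 7 unchanged genes; without control replicate 1 it recovered 56 and 100 and called 11. The simulation gave every gene the same fixed spread, changed only well-counted genes and held no outlying library. Its recovery therefore does not carry over to the choroid genes in the fit over all libraries. Levels between genes used the deposited FPKM. Poisson intervals are exact at 95%, and a count of 0 was bounded by 3 counts.

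Positions and exons came from GENCODE vM21, which matched 30989 of 31060 gene identifiers. The 34 genes and the gene lists were chosen with earlier results of these data known. Fold changes with errors are given for the 8 choroid genes with the highest mean FPKM, and for Col9a3, chosen after its value was seen. Other genes named include the 10 with the lowest ratio of control replicate 1 to the other libraries, ties at 0 being ordered by mean CPM. Others are among the 4 with the highest mean CPM of each list, not all of which are named. One gene that this rule names is not reported here. The exons were compared after the transcript estimates were seen. Also, 1500015O10Rik, Slc4a2, Cab39l, Car14 and Pf4 were singled out with their values known. Prox1 was named as a hippocampal gene outside these rules. P-values of edgeR and DESeq2 are two-sided.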

Additional observations from a re-analysis of the deposited data

How the results depend on the processing

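Over all libraries the count of choroid genes past the adjusted threshold in edgeR was 0, and it was also 0 with DESeq2, RLE factors, limma-voom, at least 10 counts in every library (24 genes left to test) and both FPKM scales. It was 24 with no count filter, the cause of which was not tested. The median log2 fold change of 0.81 ran over -0.094 to 3.77 with each library left out, with both ends set by which control remained, and was 2.02 with limma-voom and 1.78 with log2(FPKM + 0.1). With the replicate number as a block, 0 of the 34 were called, against 6 higher and 33 lower among all 17236 tested genes, and the median was 1.503. The labels do not say that a number marks a shared animal or day, and the deviations of same-numbered libraries correlated at 0.132. Without control replicate 1 the count was 0, 0 with DESeq2 and RLE factors, and 1 with no filter (lower, against 219 of 28610 genes). The count of 18 genes under 10% in control replicate 1 was 29 at 20% and 18 or 19 under the other scalings. The count of 7 genes with both surgery libraries above both controls stayed at 7 with RLE factors, no filter and FPKM. Of 96 alternative values for the 8 genes with named tests, 72 kept direction and side of the threshold, 20 passed it and 4 reversed, all 4 when a library was left out. With each library left out in turn, the log2 fold change ran over -0.40 to 2.07 for Igfbp2, -0.27 to 3.01 for Ace, -0.35 to 5.70 for Clic6, 0.24 to 7.59 for Ttr, 0.27 to 3.42 for Enpp2, 0.68 to 3.65 for Sostdc1, 0.14 to 2.49 for Kl and 0.11 to 1.02 for Car12. The values that passed the edgeR threshold came from the fit with no count filter or from fits with a library left out. Without control replicate 2 all 8 were positive, which was given in advance, since control replicate 1 was the lowest library for each. With limma-voom Ttr had 3.90.

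With 2 libraries per group and 1 control far from the rest, the fit over all libraries has wide errors for these genes. Counts of 0, 2 and 3 in control replicate 1 for Kcnj13, Slc4a5 and Tmem72 limit how far their ratios can be told apart.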

Other observations

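Genes of ependymal cells, which line the ventricles beside the choroid plexus and bear motile cilia, were mixed in which library stood apart, with control replicate 1 lowest for 10 of 17. Foxj1, the master factor of motile cilia, had 8.89 and 10.9 CPM in the surgery libraries, against 8.60 and 21.1 CPM in the controls. Rsph1, a radial spoke component, had 2.08 and 3.51 CPM after surgery, against 2.65 and 6.48 CPM in the controls. In these 2 genes control replicate 2 was the highest library. Others of the list were lowest in control replicate 1, as Pifo, with 1.87 and 2.12 CPM after surgery, against 0.531 and 2.59 CPM in the controls, and Mlf1, with 2.65 and 1.504 CPM after surgery, against 0.637 and 1.999 CPM in the controls. Without control replicate 1, which leaves the higher control alone, Foxj1 had a log2 fold change of -1.10. Over all libraries it had -0.59 (edgeR adjusted p = 0.568). The median of the 17 ependymal genes was -0.33 without control replicate 1 and -0.020 over all libraries. At an unadjusted p under 0.05 in edgeR over all libraries, 0 of 17 were lower, against 971 of 17236 tested genes. Foxj1 is among the genes named for the list, and Rsph1, Pifo and Mlf1 were chosen after their values were seen.

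Fold changes over tested genes went with GC content. Over 15429 genes with a GC value, Spearman's rho between the log2 fold change and GC content was -0.49 over all libraries and -0.53 without control replicate 1, given as a description across genes, which are not independent replicates.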
